A study of Rattus norvegicus with 12 samples.

Results

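The myosin genes of striated muscle examined here were 8 in number, 5 light chain genes (Myl7, Myl2, Myl4, Myl3 and Myl1) and 3 heavy chain genes (Myh6, Myh7 and Myh7b). They were chosen by gene symbol, and 8 of the 21239 genes with counts in the deposited table carried these symbols. RNA-seq was performed on RNA labelled as left atrium from 12 rats, with 3 libraries in each of 4 groups and 1 library per rat. The WKY group held Wistar-Kyoto rats, the normotensive control strain, and the SHR group held spontaneously hypertensive rats, which were the strain of the treated groups as well. The WKY and SHR groups received saline at 7.5 ml/kg/day. The ARB group received valsartan, an angiotensin receptor blocker, at 30 mg/kg/day, and the ARNI group received sacubitril/valsartan, which adds a neprilysin inhibitor, at 60 mg/kg/day. All rats were male. They were bought at an age of 14 weeks, and the treatment lasted 4 weeks, so each group stands for 1 sex and 1 age.

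Myosin II is the motor of the thick filament, built from a pair of heavy chains that hydrolyse ATP and, on the neck of each, an essential and a regulatory light chain. Cardiac chambers use different light chains. In atrial muscle the regulatory light chain is encoded by Myl7 and the essential light chain by Myl4, whereas in ventricular muscle these places are taken by Myl2 and Myl3. Myh6 encodes the fast alpha heavy chain, which predominates in the adult rat heart, and Myh7 encodes the slow beta heavy chain, whose share is known to rise in the loaded or hypothyroid rodent ventricle. Myh7b is a related slow type heavy chain gene, and Myl1 encodes the essential light chain of fast skeletal muscle.

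Each of the 3 heavy chain genes also carries a microRNA gene within its annotated span and on its strand, which makes the heavy chain loci regulatory as well as structural. The mature sequences are shown because they are nearly alike in the seed (bases 2 to 8, in capitals), the stretch that pairs with target transcripts. The seeds of miR-208a-3p (host Myh6) and miR-208b-3p (host Myh7) shared 7 of 7 bases, and each shared 6 of 7 with that of miR-499-5p (host Myh7b). Sequences and positions are those of RefSeq on GRCr8, at chr15:32395568-32395585 (minus strand), chr15:32421648-32421665 (minus strand) and chr3:164570616-164570636 (plus strand). The levels of the microRNAs were not analysed here.
rno-miR-208a-3p: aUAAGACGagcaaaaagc
rno-miR-208b-3p: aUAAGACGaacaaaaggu
rno-miR-499-5p: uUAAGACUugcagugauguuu

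The promoters of the essential light chain genes are shown because Myl3 and Myl4 lay at opposite ends of most libraries. The 250 bases before the start of Myl3 (GRCr8, chr8:119616844-119617093, plus strand) and of Myl4 (GRCr8, chr10:89975900-89976149, plus strand) were read from RefSeq. Capitals mark a CArG box (CC, 6 bases of A or T, GG) in the Myl3 window and TATAAA, read on the other strand, in the Myl4 window.
Myl3: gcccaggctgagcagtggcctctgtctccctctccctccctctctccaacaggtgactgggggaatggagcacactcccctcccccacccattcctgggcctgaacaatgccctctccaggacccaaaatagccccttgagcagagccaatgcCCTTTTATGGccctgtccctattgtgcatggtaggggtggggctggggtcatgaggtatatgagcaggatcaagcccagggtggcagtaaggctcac
Myl4: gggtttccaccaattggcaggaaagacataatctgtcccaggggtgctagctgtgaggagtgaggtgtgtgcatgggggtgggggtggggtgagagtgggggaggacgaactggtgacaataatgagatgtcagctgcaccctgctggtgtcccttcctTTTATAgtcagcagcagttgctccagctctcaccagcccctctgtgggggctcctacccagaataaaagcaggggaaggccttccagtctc

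The CArG box, the binding site of serum response factor, began 97 bases before the Myl3 start, and 1.5% of 33469 RefSeq windows of the same kind held one on either strand. TATAAA began 91 bases before the Myl4 start and was found in 12.9% of windows. CATTCC, the letters bound by TEAD factors, was found at 189 and 161 bases before the Myl3 start and not in the Myl4 window, and it occurred in 12.1% of windows. CANNTG, the E-box, occurred 1 time in the Myl3 window and 3 times in the Myl4 window, beside 65.5% of windows with at least 1. The MEF2 site was in neither window and was held by 2.96% of windows. The Myl4 window belonged to a start 26417 bases from the outermost annotated start of the gene. Windows were found for 7 of the 8 genes, the exception being Myl2. A match of letters is a description of the window and was not tested for binding.

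Some labels and libraries went against each other. In the titles of the 6 saline libraries the strain words say one strain and the bracketed library name the other. The bracketed name, which is also the name of the column, was used for the groups. If the strain words were right, each sign in the comparison of SHR with WKY would be turned. For the ARB and ARNI rats the strain label reads WKY and the phenotype label SHR, and they were taken as SHRs from the study's design text. The atrial label was checked with Nppa (atrial natriuretic peptide) and Sln (sarcolipin), which are defining genes of atrial muscle. Nppa stood at 32.5, 129 and 276 CPM (the gene's counts per 1000000 counts of the library) in the WKY libraries and at 40.8 CPM in ARNI replicate 2, against 17950 to 53630 CPM in the other 8 libraries. Sln stood at 0.261 to 0.444 CPM in the 3 WKY libraries and at 1.57 CPM in ARNI replicate 2. Irx4 and Hey2, transcription factor genes of ventricular muscle, were highest in the same 4 libraries, at 36.9 to 49.7 and 16.9 to 20.9 CPM. SHR replicate 2 and ARB replicate 3 held genes of both chambers, with Irx4 at 31.1 and 26.2 CPM, whereas Irx4 was at or below 0.067 CPM in the remaining 6 libraries. The summed level of the 5 ventricular markers ran over 99.1 to 126 CPM in WKY, was 6.89, 63.9 and 8.20 CPM in SHR, 6.68, 5.43 and 46.0 CPM in ARB and 6.64, 88.8 and 6.04 CPM in ARNI (replicates 1 to 3). The summed level of 12 atrial markers ran over 1731 to 2154 CPM in WKY and was 1511 CPM in ARNI replicate 2, against 25150 to 70360 CPM elsewhere. Of the atrial markers, 11 of 12 were higher in every SHR library than in every WKY library and 1, Kcna5, was lower, and of the ventricular markers 4 of 5 were lower, the exception being Hand1, which was at most 0.0853 CPM in every library. Levels that did not overlap between SHR and WKY were found for 49.5% of all genes tested. The difference in chamber markers and the difference in strain therefore cannot be told apart in a comparison with WKY, and values without SHR replicate 2, ARB replicate 3 and ARNI replicate 2 are given beside the results. In bulk RNA, fewer cells of a type and less RNA per cell cannot be told apart.

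Total counts per library ran from 11252345 to 15823511, and the upper limit for a gene without reads (3 counts) was 0.190 to 0.267 CPM. The 8 myosin genes together took 6.70% to 7.04% of the reads of each WKY library and 4.42% to 5.95% of those of the other 9. The deposited values of the 5 light chain genes were whole in 12 of 12 libraries. Those of Myh6, Myh7 and Myh7b were whole in 0 of 12. RSEM divides reads that match more than 1 gene, and how many reads the near-identical Myh6 and Myh7 share was not measured, so the split between them may be uncertain. CPM is not corrected for transcript length, so levels, and the shares and sums within pairs of chains, are compared below between libraries and do not rank the genes by abundance.

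Myl7, the atrial regulatory chain, stood at 15.9, 3.31 and 0.889 CPM in WKY, 10640, 4478 and 9152 CPM in SHR, 11550, 8921 and 5144 CPM in ARB and 8638, 9.67 and 7568 CPM in ARNI. The 4 libraries with low Nppa were those below 16 CPM, and the other 8 were at 4478 CPM or more. Myl2, the ventricular regulatory chain, stood at 3737, 3776 and 3489 CPM in WKY, 0.736, 2298 and 0.136 CPM in SHR, 2.84, 3.71 and 2573 CPM in ARB and 3.98, 4161 and 24.2 CPM in ARNI. Its level was 2298 CPM or more in 6 libraries and 24.2 CPM or less in 6, and SHR replicate 3 lay below the limit for a gene without reads.

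Of the reads of the Myl2 and Myl7 pair, Myl2 took 99.6%, 99.9% and 99.97% in WKY. It took 0.0069%, 33.9% and 0.0015% in SHR, 0.025%, 0.042% and 33.3% in ARB, and 0.046%, 99.8% and 0.319% in ARNI. SHR replicate 2 and ARB replicate 3 held nearly the same mixed share, and ARNI replicate 2 lay within the WKY range. These shares follow the library and carry no length correction. The 95% Wilson intervals reached at most 0.317 percentage points from a share and, like the limits for a gene without reads, cover counting error only.

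The essential light chains split the libraries in a like way. Myl4, the atrial essential chain, stood at 3.58, 6.87 and 2.49 CPM in WKY, 9330, 4032 and 8731 CPM in SHR, 10060, 8032 and 4761 CPM in ARB and 8511, 20.9 and 7722 CPM in ARNI. Myl3, the ventricular essential chain that slow skeletal fibres also use, stood at 7194, 7006 and 7632 CPM in WKY, 11.8, 4171 and 10.1 CPM in SHR, 25.2, 22.3 and 5209 CPM in ARB and 20.5, 8440 and 143 CPM in ARNI. In this pair a chain was high where its partner was low, with neither low in SHR replicate 2 and ARB replicate 3. The summed level of Myl3 and Myl4 stayed between 7012 and 10080 CPM in all 12 libraries. That of Myl2 and Myl7 was 3490 to 4170 CPM in WKY and ARNI replicate 2 and 6776 to 11550 CPM in the others. Without length correction, these sums do not show replacement in equal amounts. Myl3 took 99.90% to 99.97% of the pair in WKY, 99.75% in ARNI replicate 2, 50.9% in SHR replicate 2 and 52.2% in ARB replicate 3, and 0.116% to 1.82% in the other 6 libraries. Among those 6, ARNI replicate 3 was the highest for Myl3 and for Myl2.

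Myl1, the fast skeletal essential chain, was read at low depth. It stood at 0.597, 0.348 and 0.444 CPM in WKY, 11.6, 10.1 and 9.28 CPM in SHR, 9.06, 16.4 and 2.78 CPM in ARB and 17.2, 0.157 and 23.8 CPM in ARNI. ARNI replicate 2 was below the limit of its depth, and the 8 libraries with high Nppa were all above the WKY libraries. Of 10 fast skeletal markers, 2 (Atp2a1 and Mylpf) were higher in every SHR library than in every WKY library and 1 (Myh2) was lower, where 49.5% of all genes did not overlap. The summed level of the 10 was 4.69 to 6.40 CPM in WKY and 3.70 CPM in ARNI replicate 2, and 7.21 to 16.4 CPM in the other 8 libraries. Of this sum, Atp2a1, the calcium pump of fast fibres, gave 2.85 to 12.8 CPM in those 8 libraries, whereas Myh1, Myh2, Myh4 and Mylpf, the fast fibre myosins, were at most 1.12 CPM in every library. Their part in the level of Myl1 was not tested.

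**Figure D1:**
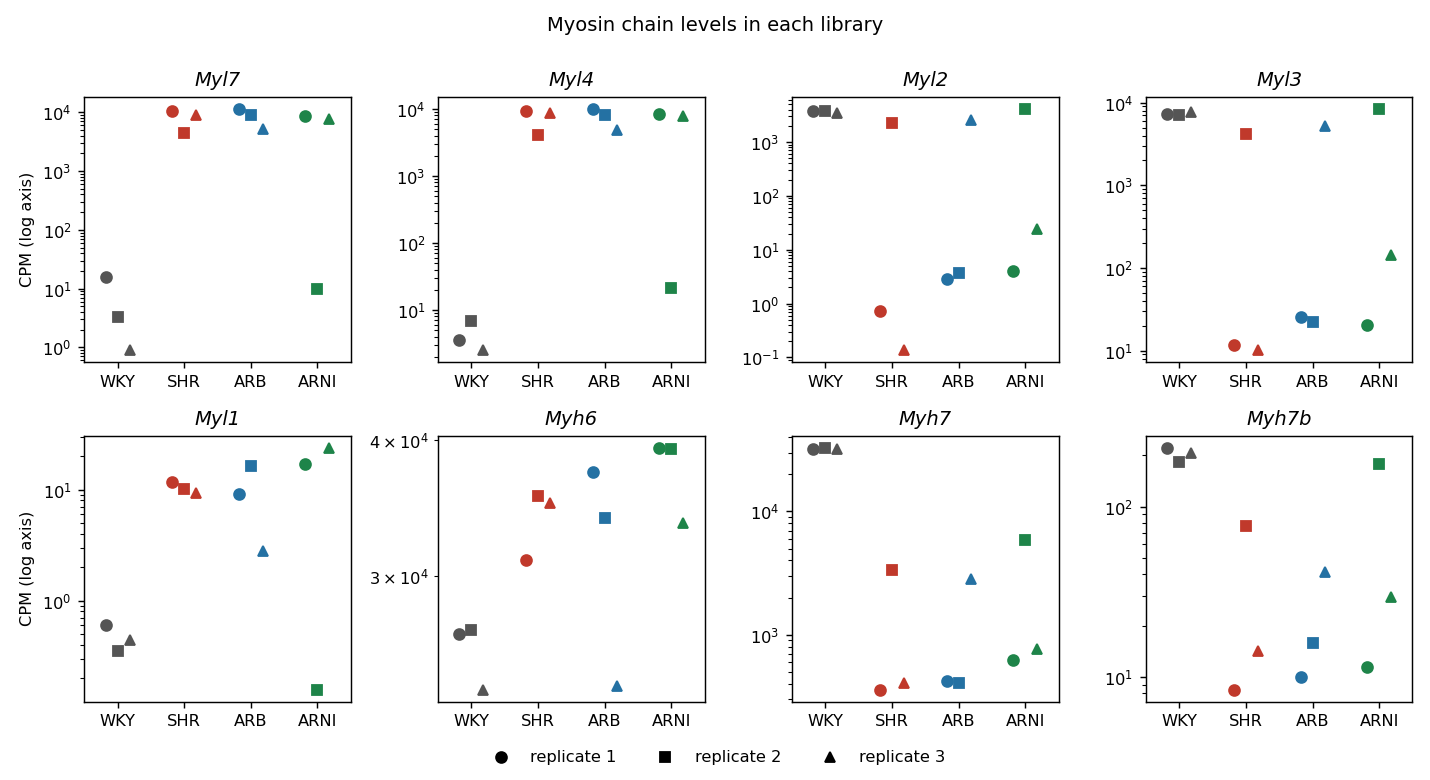
Level of each of the 8 myosin genes in every library, in CPM on a log axis (each panel with its own range), with the 4 groups on the x axis and the replicate number as the marker shape. Myl7 and Myl4 sit low in the WKY libraries and ARNI replicate 2, where Myl2 and Myl3 sit high, and Myh6 moves within a range of 23540 to 39350 CPM.

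Of the heavy chains, Myh6 was high in all libraries. It stood at 26470, 26700 and 23540 CPM in WKY, 31030, 35550 and 34990 CPM in SHR, 37430, 33930 and 23700 CPM in ARB and 39350, 39240 and 33560 CPM in ARNI. The SHR and ARNI libraries all lay above the WKY libraries, and ARB replicate 3 lay among them. Myh7, the slow chain, stood at 32280, 32740 and 32130 CPM in WKY, 357, 3319 and 402 CPM in SHR, 422, 406 and 2802 CPM in ARB and 625, 5907 and 763 CPM in ARNI. The highest library outside WKY was ARNI replicate 2.

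Myh7 took 55.0%, 55.1% and 57.7% of the Myh6 and Myh7 reads in WKY (55.9% ± 1.56, SD, n = 3). It took 1.14%, 8.54% and 1.13% in SHR, 1.11%, 1.18% and 10.6% in ARB and 1.56%, 13.1% and 2.22% in ARNI, with Wilson intervals of at most 0.122 percentage points. ARNI replicate 2, with Myl2 and Myl3 shares of 99.77% and 99.75%, thus had a lower Myh7 share than the WKY libraries, whose light chain shares were 99.58% or more. With 1 such library there is no replicate and no test of that difference. Among the 9 libraries of SHRs, ARNI replicate 3, SHR replicate 2, ARB replicate 3 and ARNI replicate 2 had the highest Myh7 shares, in this rising order. The order of their Myl3 shares was the same, whereas SHR replicate 2 lay above ARB replicate 3 in the Myl2 share. The summed level of Myh6 and Myh7 was 55670 to 59440 CPM in WKY and 26500 to 45150 CPM in the other 9 libraries.

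**Figure D2:**
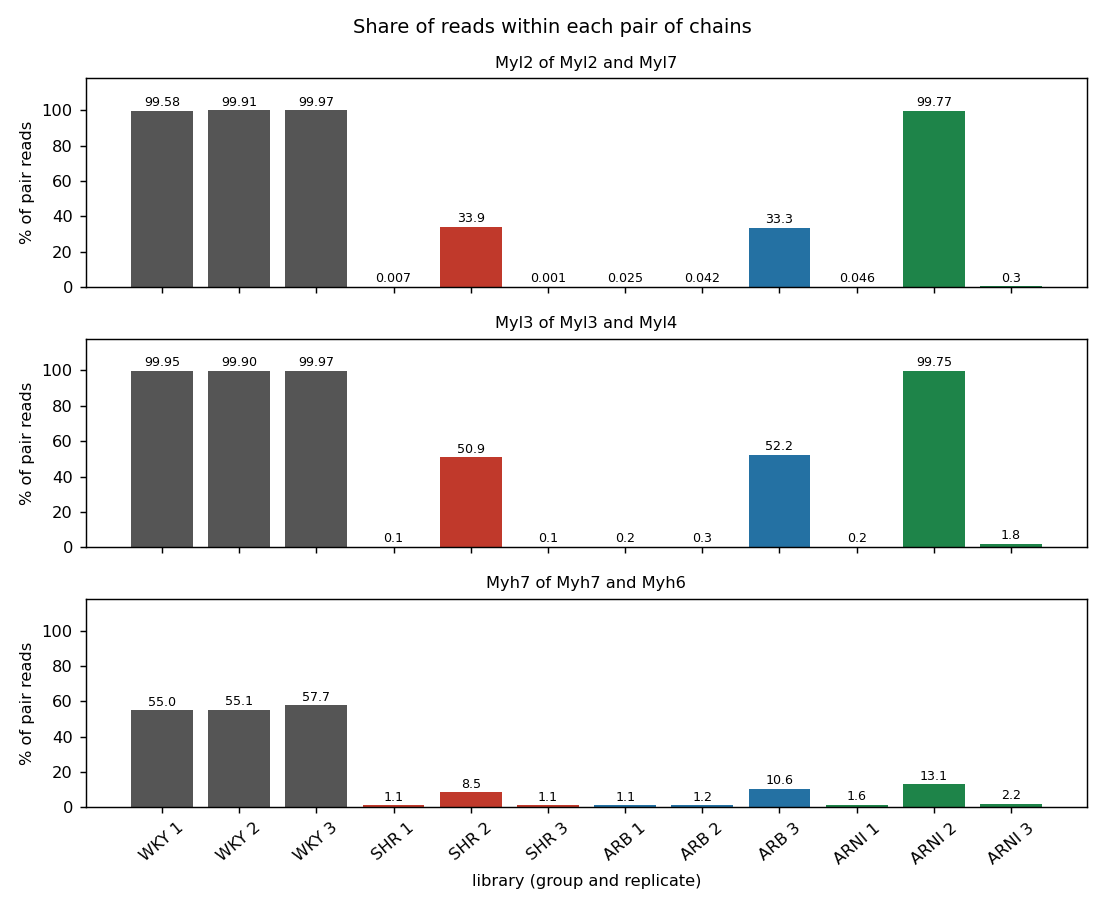
Share of reads in percent within 3 pairs of myosin genes (Myl2 of Myl2 and Myl7, Myl3 of Myl3 and Myl4, Myh7 of Myh7 and Myh6) for each of the 12 libraries, 1 bar per library, on an axis from 0. The light chain bars are near 100% in WKY and ARNI replicate 2, while the heavy chain bar of ARNI replicate 2 is 13.1% beside 55.0% to 57.7% in WKY.

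Myh7b, the host of miR-499, stood at 221, 183 and 208 CPM in WKY, 8.43, 76.7 and 14.3 CPM in SHR, 10.1, 15.9 and 41.5 CPM in ARB and 11.5, 177 and 29.7 CPM in ARNI. ARNI replicate 2 came close to the lowest WKY library for Myh7b, unlike for Myh7, and SHR replicate 2 was the highest of its group. Myh6 and Myh7 are neighbours on 1 chromosome with 0 annotated genes between them in the GRCr8 gene table.

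**Figure D3:**
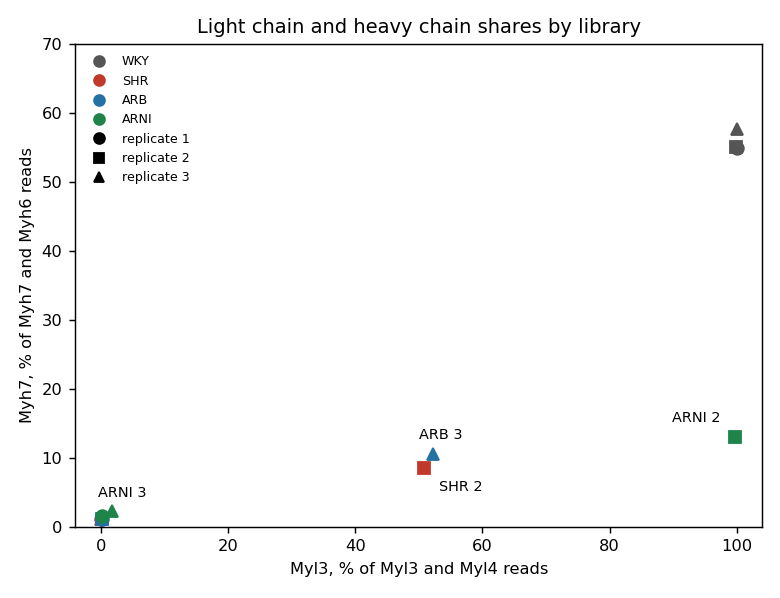
Share of Myl3 in the Myl3 and Myl4 reads (x axis, percent) against the share of Myh7 in the Myh7 and Myh6 reads (y axis, percent), 1 point per library, coloured by group and shaped by replicate number. The WKY libraries sit at the top right, ARNI replicate 2 has their x value and a y value of 13.1%, and SHR replicate 2 and ARB replicate 3 sit near the middle of the x axis at 8.54% and 10.6%.

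The comparison of SHR with WKY asks how RNA labelled as left atrium differs between the hypertensive strain and its control. Every WKY library was low in atrial markers and high in ventricular ones, so strain and chamber markers cannot be told apart in it. Myl7, Myl4 and Myl1 were higher and Myh7 was lower in SHR, while Myh6, Myl2, Myl3 and Myh7b did not pass the test. A gene was called when its log2 fold change was at least 1 in size and its adjusted p was at most 0.05 in edgeR's quasi-likelihood test (Benjamini-Hochberg over 13794 genes). Of the 8 genes, 4 were called, beside 8.89% of all genes tested, with 5.54% of genes called higher and 3.35% called lower. DESeq2 called 5 of the 8, beside 1601 of the 18705 genes with reads in these libraries. The levels did not overlap between the SHR and WKY libraries for any of the 8 genes, which was so for 49.5% of genes tested. The 8 genes were all tested, and a filter on low counts removed none of them.

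Among the atrial chains, Myl7 was higher in SHR by 10.09 on the log2 scale (SE 1.22, 95% interval 7.19 to 13.00, adjusted p = 0.005848), from a mean of 6.68 ± 8.04 CPM in WKY to 8090 ± 3216 CPM in SHR (SD, n = 3, edgeR). Myl4 was higher by 10.59 (SE 0.64, interval 9.07 to 12.10, adjusted p = 0.001462, edgeR), a fitted fold of 1538. Each of these calls was kept without each library in turn and with all 12 libraries in 1 fit. Myl1 was higher by 4.32 (SE 0.26, interval 3.69 to 4.95, adjusted p = 0.001479, edgeR), a fitted fold of 20.0, and its adjusted p was 0.0537 with all 12 libraries in 1 fit. The WKY libraries held 0.463 ± 0.126 CPM of Myl1, a few reads each, so the size of this fold is set by a small count.

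Myh7 was lower in SHR, with a log2 fold change of −4.65 (SE 1.04, interval −7.12 to −2.18, adjusted p = 0.02748, edgeR), a fitted 25.2-fold. This call was lost without WKY replicate 1, 2 or 3 or SHR replicate 1 (adjusted p 0.07177 to 0.08636) and with all 12 libraries in 1 fit (0.05988, edgeR). With each of those libraries left out, the log2 fold change of Myh7 was −4.66 to −4.19. Over all genes, those fits called 348 to 577 genes rather than 1226, and the fit of all 12 libraries called 579. Without SHR replicate 2 the value was −6.59 (adjusted p = 6.8e-06, edgeR). Myh6 differed by 0.27 (SE 0.27, interval −0.37 to 0.92, adjusted p = 0.4844, edgeR), and the ends of this interval stayed within a log2 change of 1.

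Myl2, Myl3 and Myh7b rested on SHR replicate 2. With it, their log2 fold changes were −2.32 (interval −8.08 to 3.45, adjusted p = 0.5044), −2.44 (−7.23 to 2.36, 0.3982) and −2.71 (−4.68 to −0.75, 0.05895, all by edgeR). Without it, they were −13.16 (SE 0.43, adjusted p = 1.879e-05), −9.54 (SE 0.20, 6.8e-06) and −4.35 (SE 0.22, 8.333e-05, all by edgeR). In that fit 7 of the 8 genes were called, beside 2205 of 14035 genes tested. The library left out was the SHR library in which these 3 genes were highest. The values without it therefore describe the remaining SHR libraries and are no separate support for a fall. DESeq2 called Myh7b on all 6 libraries (adjusted p = 0.02068). The same library held the ventricular markers at 63.9 CPM, beside 6.89 and 8.20 CPM in the other SHR libraries.

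**Figure D4:**
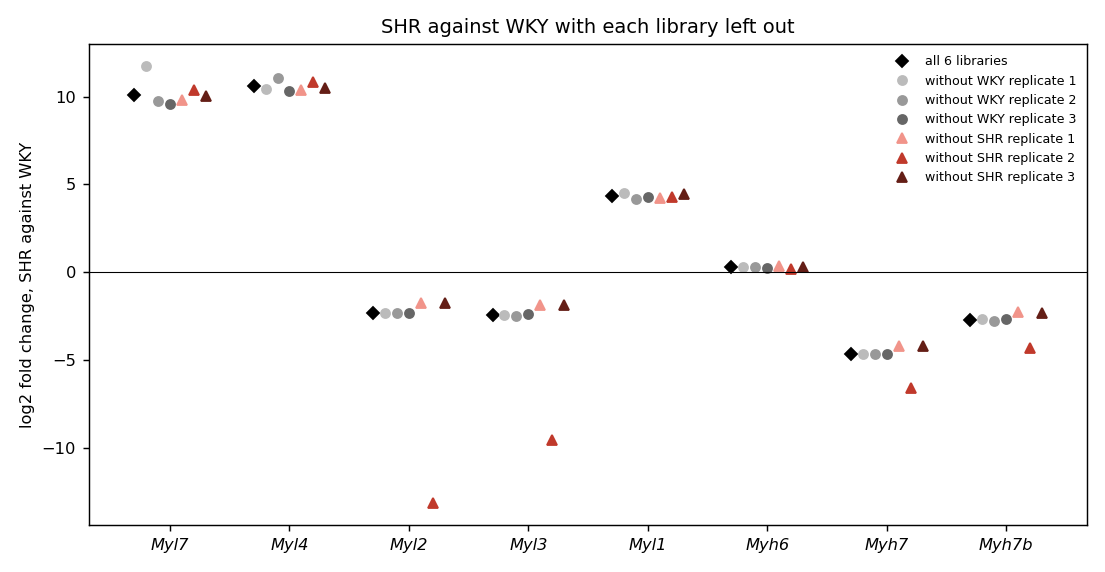
Log2 fold change of each myosin gene between SHR and WKY (positive is higher in SHR), fitted on all 6 libraries (black diamond) and with each library left out (circles for WKY, triangles for SHR). Leaving out SHR replicate 2 moves Myl2 to −13.16 and Myl3 to −9.54, and Myl7, Myl4 and Myl1 stay between 4.15 and 11.76.

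The comparisons of treated with untreated SHRs ask what each drug changed. No myosin gene was called for ARB against SHR, beside 0% of 13979 genes tested, and the adjusted p of the 8 genes was 0.9998 (edgeR). Over all genes, 225 had an unadjusted p under 0.05 and DESeq2 called 3. The 8 myosin genes held 0 of the first, and DESeq2 called none of the 5 to which it gave an adjusted p, which left out Myl2, Myl3 and Myh7. The intervals were narrowest for Myh6 (−0.07, −0.75 to 0.60), Myl4 (0.08, −0.86 to 1.03) and Myl7 (0.11, −0.86 to 1.09), so that a log2 change above 1.09 lay outside them. They were wide for Myl1 (−0.15, −1.39 to 1.09), Myh7b (−0.55, −2.77 to 1.67), Myh7 (−0.14, −2.90 to 2.62), Myl3 (0.36, −5.84 to 6.56) and Myl2 (0.20, −7.15 to 7.56), for which a log2 change of 1 in either direction lay inside the interval. Without the mixed libraries, SHR replicate 2 and ARB replicate 3, Myl2 stood at 2.89 and Myl3 at 1.15 on the log2 scale, and no gene was called. The other members lay between 0.03 and 0.29 there, and the Myl2 value rests on 11 and 2 reads in SHR replicates 1 and 3. With SHR taken by the title words instead, ARB was compared with the libraries named WKY. In that fit 5 of the 8 genes were called, beside 1526 of 13786 genes tested. Those libraries were low in atrial markers, so drug and chamber markers cannot be told apart in it.

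ARNI against SHR likewise gave no call among the 8 genes, beside 0% of 13955 genes tested (adjusted p 0.9992, edgeR). Over all genes, 227 had an unadjusted p under 0.05 and DESeq2 called 7. The 8 myosin genes held 0 of the first, and DESeq2, which gave no adjusted p for Myl2, Myl3 and Myh7, called none of the other 5. Myh6 differed by 0.23 (interval −0.72 to 1.18). The atrial chains stood at −0.56 (−4.44 to 3.32) for Myl7 and −0.42 (−4.02 to 3.18) for Myl4. The others were 1.02 (−6.78 to 8.82) for Myl2, 1.19 (−5.40 to 7.77) for Myl3, 0.42 (−2.28 to 3.12) for Myl1, 0.97 (−2.18 to 4.13) for Myh7 and 1.27 (−1.83 to 4.38) for Myh7b. Without ARNI replicate 2 and SHR replicate 2, Myl2 stood at 5.01, Myl3 at 2.94, Myl1 at 1.01, Myh7 at 0.92 and Myh7b at 0.91 on 2 libraries a group. Myh6 stood at 0.20, Myl4 at −0.10 and Myl7 at −0.24, and none of the 8 was called. The Myl2 value rests on 11 and 2 reads in SHR replicates 1 and 3. With the replicate number as a block, Myh7 stood at 0.93 (SE 0.16), Myh7b at 1.01 (SE 0.19), Myl2 at 2.80 (SE 1.09), Myl3 at 1.89 (SE 0.67), Myl7 at −1.80 (SE 1.90), Myl4 at −1.63 (SE 1.71) and Myl1 at −0.21 (SE 1.18), with adjusted p of 0.8443 to 0.9815 (edgeR) and no call. Between libraries of the same number, Myl2, Myl3, Myh7 and Myh7b had higher CPM and Myl7 and Myl4 lower CPM in ARNI in 3 of 3 pairs. No source says that the number pairs rats, and replicate 2 held ventricular markers in both groups. The like count was not taken over all genes, so these directions are a description and no test of the drug. Both drug comparisons use the same SHR libraries, and so their values are not independent.

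ARNI against ARB asks whether the drugs differ from each other, and it too called none of the 8 genes, beside 0% of 13948 tested (adjusted p 0.993 to 0.9947, edgeR). Over all genes, 539 had an unadjusted p under 0.05 and DESeq2 called 18, with 0 of the first among the 8 and none called by DESeq2 among 5, since Myl2, Myl3 and Myh7 again had no adjusted p. Myh6 differed by 0.31 (−0.59 to 1.21), Myl7 by −0.66 (−4.45 to 3.13), Myl4 by −0.49 (−4.01 to 3.02) and Myl1 by 0.57 (−2.35 to 3.49). The ventricular and slow chains had differences of 0.81 (−6.21 to 7.84) for Myl2, 0.82 (−5.37 to 7.01) for Myl3, 1.11 (−1.84 to 4.06) for Myh7 and 1.82 (−0.87 to 4.52) for Myh7b. Without ARB replicate 3 and ARNI replicate 2, Myl2 stood at 2.11, Myl3 at 1.79 and Myh7 at 0.76, with no call. Intervals of this width do not show that the drugs act alike on these genes.

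**Figure D5:**
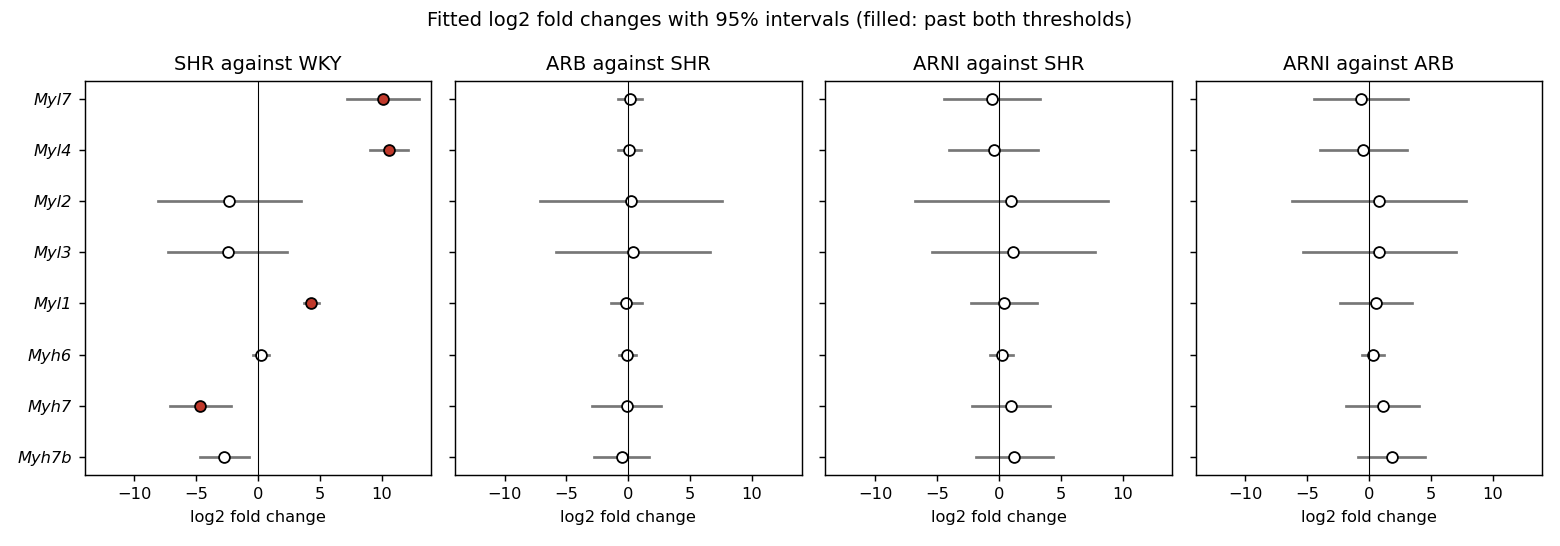
Fitted log2 fold changes of the 8 myosin genes (points) with 95% intervals (lines) in the 4 comparisons, where filled points pass both thresholds. Filled points appear for Myl7, Myl4, Myl1 and Myh7 in SHR against WKY alone, and the Myl2 and Myl3 lines span several log2 units in every panel.

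Other genes of the myosin system were taken from 3 lists. Of 10 further striated-muscle myosin genes, such as the skeletal heavy chains, 9 had counts and 0 passed the filter on low counts in SHR against WKY, so none of the fast fibre heavy chains could be tested beside Myl1. Of the smooth-muscle and nonmuscle myosin genes, 8 were tested and their median log2 fold change was 0.17, beside 0.01 for all genes. Myl9, a regulatory light chain of smooth muscle, rose (1.88, SE 0.22, adjusted p = 0.005443, edgeR), a call lost with all 12 libraries in 1 fit (0.05232). Myh11, the smooth-muscle heavy chain, fell (−1.13, SE 0.30, adjusted p = 0.04214, edgeR), a call lost without WKY replicate 1, 2 or 3 or SHR replicate 1 or 3 (adjusted p 0.05393 to 0.1362) and with all 12 libraries in 1 fit (0.2385). The fits that lost the Myh11 call also called fewer genes over all genes, 348 to 1147 rather than 1226. These smooth-muscle chains thus moved in opposite directions, and the summed level of 6 smooth-muscle markers ran over 399 to 465 CPM in WKY and 376 to 428 CPM in SHR.

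Of the 15 genes for myosin binding, phosphorylation and folding, 14 were tested in SHR against WKY, 3 rose and 0 fell, beside 5.54% and 3.35% of all genes tested, and the median was 0.10, beside 0.01 for all genes. Mybphl, a myosin-binding protein gene of atrial muscle, was held by 28892 reads over the SHR libraries and 2 over the WKY libraries. The ratio from these pooled reads was 11750 (counting interval 3252 to 97020), and this interval leaves out the spread between rats. Its fitted log2 fold change was 13.13 (SE 0.56, adjusted p = 0.001142, edgeR). Mylk2, the skeletal-type light chain kinase, rose by 2.26 on the log2 scale (SE 0.52, adjusted p = 0.03008, edgeR), and Mybph, a related binding protein, by 1.17 (SE 0.23, adjusted p = 0.01959, edgeR). The Mylk2 call was lost without each library in turn other than SHR replicate 2 (adjusted p 0.0603 to 0.115), and that of Mybph without each WKY library or SHR replicate 1 and with all 12 libraries in 1 fit (0.0558 to 0.0799, edgeR). The fits that lost these calls called 348 to 1147 genes over all genes rather than 1226. The kinase of cardiac muscle, Mylk3, and the cardiac binding protein, Mybpc3, differed by −0.12 and −0.47 and were not called. No gene of the 3 lists was called in the comparisons of ARB or ARNI.

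The genes closest in pattern to each chain were found by Pearson's r of log2 CPM over the 12 libraries among 14444 genes. This is a description without a test, since the 12 points share groups and the chamber split above. Nearest to Myl4 were Sln (r = 0.9952), Mybphl (0.9946) and Sbk3 (0.9933), and nearest to Myl7 were Sbk3 (0.9924), Gfy (0.9895) and Cacna2d3 (0.9881). Nearest to Myl3 were Tesc (0.9919), Tuba8 (0.9918) and Ckm (0.9917), and nearest to Myl2 were Hagh (0.9883), Prxl2b (0.9869) and Tuba8 (0.9862). Sbk3 was shared by the atrial light chains and Tuba8 by the ventricular ones. The heavy chains had other nearest genes, with Vwa7 (0.9915), Gramd2b (0.9877) and Ccdc78 (0.9841) for Myh7, Lrpprc (0.9966), Rimbp2 (0.9909) and Aldh5a1 (0.9909) for Myh7b, and Rbm20 (0.9241), Abitram (0.8979) and Ddx19a (0.8947) for Myh6.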

How the data were processed

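The authors sequenced oligo(dT)-enriched RNA as 50-base single-end reads, filtered them with SOAPnuke and aligned them with HISAT2 (2.0.4) and Bowtie2 (2.2.5) on Rnor_6.0, per the labels and the submitters' processing notes. The annotation release is not given in the sources used here. They deposited expected counts per gene from RSEM without normalization, and 2 columns of their own comparison (log2 fold change and p) were not used. The table lists 37246 genes, 21239 with counts, of which 23.6% of values were not whole.

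The counts were rounded, filtered with filterByExpr, scaled by TMM and compared by edgeR's quasi-likelihood test (edgeR 4.0.16, limma 3.58.1, R 4.3.3) on the 6 libraries of each pair of groups, with Benjamini-Hochberg adjustment. Standard errors were derived from the F statistic. CPM is the rounded count per 1000000 counts of the library. The steps were tested on simulated counts. Alternatives were DESeq2 (1.42.0), RLE scaling, library totals only, no filter, all 12 libraries in 1 fit, a replicate block, each library left out and libraries that stand apart left out. SHR was also taken by title words, in ARB against SHR and ARNI against SHR only. Tables and plots used Python 3.11.15, pandas 2.3.3, numpy 2.4.6, scipy 1.17.1 and matplotlib 3.10.9.

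The members and gene lists were chosen with earlier results of these data known. The genes named were the 8 members, the called genes of each list in SHR against WKY (at most 5), the 3 genes nearest to each chain other than Myl1, and 4 marker genes. Mylk3, Mybpc3, Kcna5, Hand1, Atp2a1 and the fast fibre myosins were chosen after their values were seen. Over all genes tested, SHR against WKY had a median log2 fold change of 0.01 with TMM and 0.15 with library totals only. Replicates are separate rats according to the paper. As a check of pairing, deviations of same-numbered libraries from their group means correlated at 0.54, 0.48 and 0.21 between ARNI and SHR (unlike numbers −0.49 to 0.05). They correlated at 0.41, −0.27 and −0.27 between ARB and SHR and at 0.54, −0.44 and −0.10 between ARNI and ARB. Libraries of unlike number that held ventricular markers reached 0.53 (SHR 2 with ARB 3) and 0.60 (ARB 3 with ARNI 2), so these values do not establish pairing. Between ARNI and SHR the number was taken to pair the libraries in the block, although no source says what it marks. The block changed no call there.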

Additional observations from a re-analysis of the deposited data

How the results depend on the processing

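The direction of each of the 8 genes in SHR against WKY was kept under every alternative run for that comparison. SHR by title words was not among them, and that reading would turn each sign. Of the 8 genes, 4 were called there, 2 with all 12 libraries in 1 fit, and 3 to 7 with each library left out (7 without SHR replicate 2). Over all genes, 1226 of 13794 were called there, 579 of 14452 with all 12 libraries in 1 fit and 2205 of 14035 without SHR replicate 2. Without WKY replicates 1, 2 and 3 the calls were 393 of 14138, 353 of 14149 and 348 of 14145 genes. Without SHR replicates 1 and 3 they were 577 of 14012 and 1147 of 13943, and with library totals only 1348 of 13794. The smooth-muscle and nonmuscle list had 2 called, 1 with library totals only, 0 with all 12 libraries in 1 fit, 1 with the replicate block and 1 to 2 with each library left out. The list for binding, phosphorylation and folding had 3 called, 1 with the replicate block and 1 to 3 with each library left out. With the replicate block, 681 rather than 1226 of all genes were called in SHR against WKY, where same-numbered libraries correlated at 0.02, −0.07 and −0.10 and were not taken as pairs. With the block, signs turned for Myh7 in ARB against SHR (0.12), Myl1 in ARNI against SHR (−0.21) and Myl3 in ARNI against ARB (−0.14).

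Without the libraries that stand apart, signs turned in ARB against SHR for Myl1 (0.29), Myh6 (0.14), Myh7 (0.16) and Myh7b (0.22). With SHR taken by title words, ARB against those libraries (named WKY) called 5 of the 8 genes, beside 1526 of 13786 genes tested. It called 2 of the binding list and 2 of the smooth-muscle list, and signs turned for Myl2 (−2.10), Myl3 (−2.06), Myl1 (4.19) and Myh6 (0.21). For ARNI they turned for Myl2 (−1.32), Myl7 (9.55), Myl3 (−1.28), Myl4 (10.18), Myh7 (−3.70) and Myh7b (−1.45). That ARNI fit called none of the 8 genes, beside 34 of 13656 genes tested, and Myl1 did not pass its filter on low counts. The cause of these changes was not tested beyond the values without single libraries.

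With each library left out, log2 values in ARB against SHR ran from −7.96 to 11.06 for Myl2, −0.18 to 0.38 for Myl7, −5.97 to 7.48 for Myl3, −0.19 to 0.31 for Myl4, −0.74 to 0.27 for Myl1, −0.22 to 0.06 for Myh6, −1.78 to 1.81 for Myh7 and −1.42 to 1.09 for Myh7b. In ARNI against SHR they ran from −5.84 to 11.86 for Myl2, −1.09 to 0.03 for Myl7, −4.17 to 8.29 for Myl3, −0.92 to 0.17 for Myl4, −0.21 to 0.99 for Myl1, −1.01 to 2.90 for Myh7 and −0.73 to 2.90 for Myh7b. In ARNI against ARB they ran from −6.04 to 8.98 for Myl2, −4.53 to 7.15 for Myl3, −1.01 to 0.09 for Myl4, −0.06 to 1.17 for Myl1, −0.87 to 2.76 for Myh7 and −0.18 to 2.70 for Myh7b.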
